A study of Mus musculus with 13 samples.

Results

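Stroma 1 is a cluster of kidney stromal nuclei named in the deposited cell annotation of a snATAC-seq data set, which records open chromatin in single nuclei. Its members were the 1479 nuclei with that cluster name, of 28316 nuclei in all. They came from whole mouse kidneys of 5 samples: 2 labelled P0 (newborn; the protocol calls these mice 1 day old), 1 labelled P21 (3 weeks) and 2 labelled P56 (8 weeks). P21 and P56 make up the adult group, following the study. No transgene or treatment is named in the labels, the strain of these mice is not given in the sources used here, and nothing says whether the samples of a stage came from separate animals. The p-values therefore measure the spread between these samples, which may be technical. The fitted spread beyond counting error (edgeR common dispersion) was small. It was 0.0022 for stroma 1 genes and 0.00041 for the comparison with endothelium. For stroma 1 peaks and the comparisons with stroma 2 it was 9.8e-05 each time. That value is the lower limit of the search, so it is no estimate of the spread there. Adult mice were perfused with PBS and their kidneys were lysed in a larger volume than those of the newborns, so stage and preparation cannot be told apart.

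Kidney stroma is the connective tissue between nephrons and vessels. In development, Foxd1-expressing progenitors give rise to interstitial fibroblasts, pericytes, mesangial cells and vascular smooth muscle. Stromal signals such as retinoic acid act on the growing nephrons and ureteric tips, and the mature stroma supports vessels and makes erythropoietin. At birth the mouse kidney still holds nephron progenitors and forms nephrons.

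Stroma 1 counted 690 and 491 nuclei in the P0 samples but 90 (P21), 107 and 101 (P56) in the adult ones. Of the nuclei in the 13 named cell types these were 11.7% and 9.17% in the newborn kidneys, against 2.77%, 1.54% and 1.63% in the adult samples. The mean share was 10.4% at P0 (SD 1.77, n = 2) and 1.98% in the adult (SD 0.683, n = 3). Both P0 samples lay above the 3 adult samples, but an exact permutation test of 2 against 3 samples cannot go below p = 0.2 (two-sided), which is the value obtained. In the deposited matrix a peak is open or closed in each nucleus, and an open call is a nucleus and peak pair. Stroma 1 gave 3823908 and 3219102 open calls in the P0 samples, and 294254 (P21), 297465 and 536670 (P56) in the adult samples. A median nucleus had 5010.5 and 6120 open peaks at P0 but 1919.5, 2466 and 4547 in the adult samples. Shares of open nuclei fall with depth, and levels are therefore given scaled to the total calls, which does not remove every effect of depth on calls that are open or closed. In all, 50 stroma 1 nuclei carried a barcode also found in another sample, and such repeats number 959 over the whole series.

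The cluster name was checked against the other cell types. Signatures of 1000 peaks each were taken for the cell types other than stroma 1. Proximal convoluted and straight tubule were merged, as were distal convoluted and connecting tubule. Stroma 1 was not among the types compared in choosing them, so peaks it shares with a type may lie in that type's signature. A nucleus with over 0.5% of its open peaks in the signature of a type other than stroma was counted as carrying another profile. At P0 this held for 27 of 690 and 40 of 491 nuclei. At P21 it held for 53 of 90, and at P56 for 36 of 107 and 55 of 101. The shares were 5.67% of P0 nuclei and 48.3% of adult nuclei. For the proximal tubule, which reabsorbs most of the filtrate, 6 and 12 nuclei were above the limit at P0 and 43, 13 and 31 in the adult samples. The summed calls of 19 proximal tubule markers ran at 242 and 285 CPM at P0, in calls scaled to a common total per sample, against 1257, 356 and 948 in the adult samples. The endothelial signature was above the limit in 4 and 12 P0 nuclei and in 11, 18 and 18 adult nuclei. When the nuclei with another profile were left out, the proximal tubule sums were 226, 235, 199, 224 and 226 CPM in the same sample order, whereas those of 10 markers of the distal convoluted and connecting tubule were 521, 514, 655, 800 and 657. The summed calls of 13 stromal markers moved from 1262, 1224, 744, 908 and 775 CPM to 1292, 1263, 1217, 1126 and 1250. The signature of stroma 2 took a median of 0.734% and 0.780% of open peaks in the P0 nuclei with another profile, but 0.0790%, 0.105% and 0.0972% in such adult nuclei. In these adult nuclei the signatures of stroma 2 and of the other types thus go against the cluster name. Peaks of stroma 1 itself were not used for this. The remaining 663, 451, 37, 71 and 46 nuclei had stromal marker sums between 1126 and 1292 CPM, and their medians for the stroma 2 signature were 1.25%, 1.17%, 0.511%, 0.430% and 0.572%. Results below are given for all nuclei of the cluster, and the main counts again for those remaining. This limit was chosen after seeing the data, and for genes of the left-out types the second value is not independent of it.

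**Figure D1:**
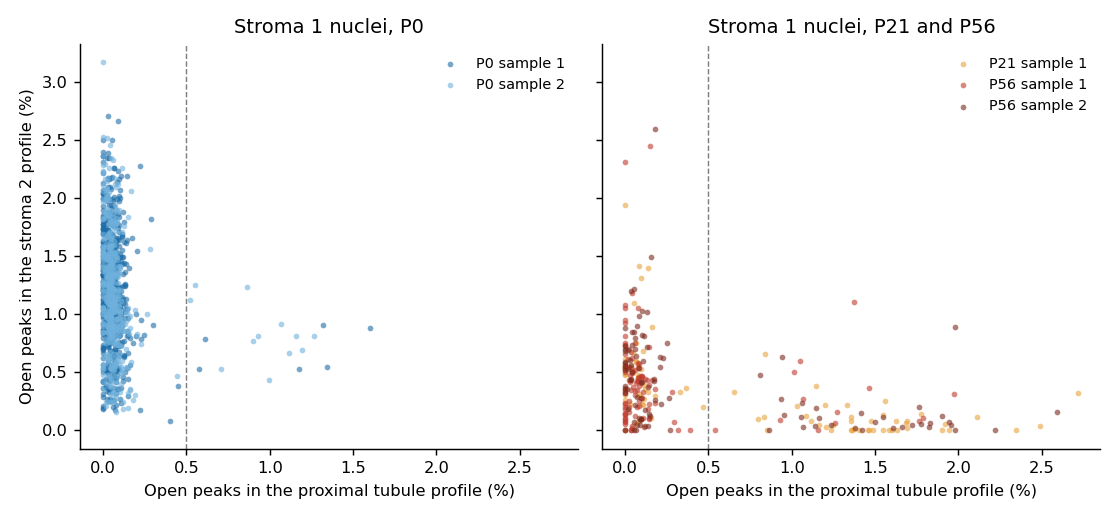
Each point is a stroma 1 nucleus, with the share (%) of its open peaks in the proximal tubule signature on the x axis and in the stroma 2 signature on the y axis, P0 on the left and adult samples on the right. The dashed line marks 0.5%, to the right of which lay 6 and 12 P0 nuclei and 43, 13 and 31 adult nuclei.

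The peaks that differed most between the stages are shown here by 4 examples with their sequence. They are an element at the Mfap4 start, distal elements nearest to Nepro and Tcf21, and an intronic element of Zbtb16. Each line gives the central 300 bases of the peak, GRCm38.p6, plus strand. Capitals mark matches, on either strand, to the motifs searched. They are the E-box CATCTG, the MEIS word TGACAG, the NFI word TTGGCA, the TEAD word GGAATG and the word AGATAA of the Gata factors. In Zbtb16 they mark the glucocorticoid receptor palindrome, which is GNACA followed after 3 free bases by TGTNC.
Mfap4, chr11:61485024-61485323: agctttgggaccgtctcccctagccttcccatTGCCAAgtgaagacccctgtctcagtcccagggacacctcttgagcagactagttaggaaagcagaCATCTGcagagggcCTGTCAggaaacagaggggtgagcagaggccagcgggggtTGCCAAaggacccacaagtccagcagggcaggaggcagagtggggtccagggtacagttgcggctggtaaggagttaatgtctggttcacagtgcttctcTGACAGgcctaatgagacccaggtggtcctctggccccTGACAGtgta
Nepro, chr16:44695916-44696215: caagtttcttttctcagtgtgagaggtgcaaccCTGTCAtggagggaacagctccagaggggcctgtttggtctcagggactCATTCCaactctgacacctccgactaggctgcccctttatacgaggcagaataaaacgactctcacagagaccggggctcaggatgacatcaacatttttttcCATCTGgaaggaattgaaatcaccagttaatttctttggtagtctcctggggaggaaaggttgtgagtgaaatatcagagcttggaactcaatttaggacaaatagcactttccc
Tcf21, chr10:22921532-22921831: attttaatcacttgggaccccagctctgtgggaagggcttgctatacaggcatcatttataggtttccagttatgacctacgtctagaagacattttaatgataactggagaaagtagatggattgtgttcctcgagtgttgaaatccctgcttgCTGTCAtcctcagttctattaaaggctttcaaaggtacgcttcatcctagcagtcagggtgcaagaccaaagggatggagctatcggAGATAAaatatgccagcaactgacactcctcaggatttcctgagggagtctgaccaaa
Zbtb16, chr9:48723655-48723954: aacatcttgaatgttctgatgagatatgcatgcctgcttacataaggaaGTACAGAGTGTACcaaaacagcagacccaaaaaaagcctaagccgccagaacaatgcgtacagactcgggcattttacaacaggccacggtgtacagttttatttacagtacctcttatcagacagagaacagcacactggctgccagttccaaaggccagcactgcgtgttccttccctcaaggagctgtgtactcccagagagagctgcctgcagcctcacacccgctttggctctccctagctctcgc

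The Mfap4 element spans chr11:61484557-61485790 and covers the start of Mfap4, which encodes a microfibril-associated matrix protein. It was open in 237 of 690 and 195 of 491 P0 nuclei, or 34.3% and 39.7%. It was open in none of the 298 adult nuclei, which allows a share of up to 1.01%. Against a floor of 3 calls over the adult group, its level was at least 23.1-fold higher at P0, where it was 61.3 CPM against a floor of 2.66 CPM. Over the 154 adult nuclei without another profile the floor was 6.29 CPM, which makes the level at least 9.96-fold higher at P0, and the limit of the share was 1.95%. In stroma 2, the larger stromal cluster, the same peak was open in 39.4% and 44.7% of P0 nuclei and in 1.94%, 2.06% and 0.872% of adult nuclei. The distal element at chr10:22921035-22922327 lies 101507 bp from the start of Tcf21, which encodes a helix-loop-helix factor of the renal stroma. It was open in 38.1% and 40.5% of P0 nuclei and in 2.22%, 0.935% and 1.98% of adult nuclei. Its log2 difference, adult minus P0, was -3.99 (SE 0.37). The element at chr16:44695418-44696713, 28236 bp from the start of Nepro, was open in 37.7% and 39.9% of P0 nuclei and in 2.22%, 0% and 0.99% of adult nuclei. The Zbtb16 element went the other way. At chr9:48723370-48724239, in an intron of this zinc finger factor gene that glucocorticoids are known to induce, it was open in 2.61% and 2.44% of P0 nuclei and in 12.2%, 15.0% and 38.6% of adult nuclei. Its log2 difference was 3.63 (SE 0.36, adjusted p = 1.64e-14, edgeR quasi-likelihood test) and 3.77 without nuclei of another profile.

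Gene activity was measured as the open calls over a gene body and the 2 kb upstream of it, summed per sample and scaled to a common total over the tested genes (CPM, with TMM normalization). Differences are log2 values, adult minus P0, so a negative value is a higher level at P0. With edgeR's quasi-likelihood test and Benjamini-Hochberg adjustment at 0.05, 2455 of 14788 genes tested were higher at P0 (16.6%) and 2082 were higher in the adult (14.1%). Among the nuclei without another profile, 1131 of 8125 genes were higher at P0 (13.9%) and 753 were higher in the adult (9.27%). Of the genes higher at P0, 1346 were also tested in those nuclei and 938 of them (69.7%) were called again. Of the genes higher in the adult, 1391 were tested again, 610 (43.9%) were called the same way and 8 the opposite way. The 2 groups of samples did not overlap for 7233 genes (48.9% of those tested). Leaving out P0 sample 1, P0 sample 2 or P56 sample 2 moved the counts to 931 and 449, 1184 and 591, or 1131 and 908, for P0 and adult respectively. A gene passed the filter on low counts through its higher group, and overlapping genes share peaks.

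Among the genes with the smallest adjusted p on the P0 side, Kif26b, a kinesin family gene needed for kidney development, had 253 and 250 CPM at P0 and 49.2, 56.7 and 39.0 in the adult samples. Its log2 difference was -2.44 (SE 0.20, adjusted p = 6.38e-08, edgeR). Sema3a, which encodes a secreted guidance cue, fell from 266 and 254 to 53.0, 64.3 and 43.1 CPM, a difference of -2.34. Pcdh15, a protocadherin gene, showed -2.88, Ntsr1, the gene of a neurotensin receptor, -3.56, and Lsamp, an adhesion gene, -1.86. The genes chosen with the smallest adjusted p at P0 were completed by Dgki, Smyd3, Lrriq1, Cracr2a, Grik4, Mfap4, Asxl3, Lsp1, Cntn4 and Dner. All 15 were called again without nuclei of another profile, and all 15 were also higher at P0 in stroma 2, as were 60.7% of all genes called higher at P0 in stroma 1 and 17.2% of all genes tested.

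The genes higher in the adult were led by Lama5, Map3k5 and Zbtb16. Lama5, the laminin alpha 5 chain of mature basement membranes, rose from 42.7 and 46.9 CPM at P0 to 204, 197 and 189. Its difference was 2.12 (SE 0.15, adjusted p = 1.53e-08, edgeR), and 2.28 without nuclei of another profile. Zbtb16 rose from 126 and 136 to 390, 563 and 511 CPM, a difference of 1.90 (SE 0.15). Klf13, a Krüppel-like factor gene, went from 170 and 171 to 462, 488 and 468, a difference of 1.47. Map3k5, a stress-activated kinase gene, gave 1.81, and Actn4, the gene of a cytoskeletal alpha-actinin, 1.31. The others were Aldh1l1, Usp2, Pacsin2, Epb41, Cd82, Plekhg3, Ergic1, Lrrc8a, Myo1e and Gm49380. Usp2 lies within Gm49380 and they share peaks, so they are not separate results. All 15 were called again without nuclei of another profile, and 14 of 15 were also higher in adult stroma 2, as were 56.6% of the genes called higher in adult stroma 1 and 18.3% of all genes tested. For Aldh1l1 the difference was 1.62 with all nuclei and 0.90 without those of another profile.

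**Figure D2:**
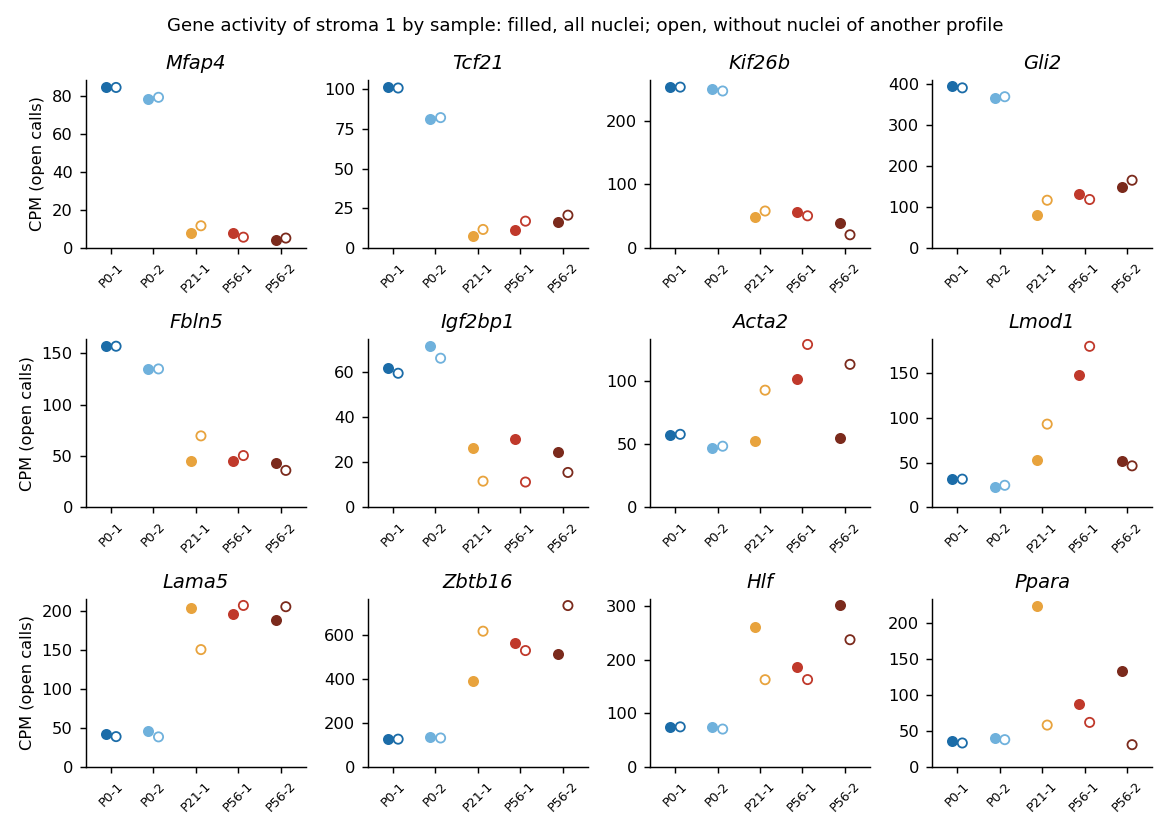
Gene activity of 12 genes in stroma 1 (y axis, CPM of open calls, linear from 0) in each of the 5 samples (x axis), filled for all nuclei and open without nuclei of another profile. Mfap4, Tcf21, Kif26b and Gli2 were higher in both P0 samples, Lama5, Zbtb16 and Hlf in the 3 adult samples, and the open points of Acta2 and Ppara lay apart from the filled ones in the adult.

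The called genes also differed in length and in the cell type where they were most open. Genes higher at P0 had a median length of 55.4 kb, against 28.7 kb for those higher in the adult and 23.7 kb for the rest. The medians were 135, 36.3 and 30.4 kb without nuclei of another profile. The medians of the peaks per gene were 10, 8 and 5 with all nuclei. Of the genes higher in the adult, 59.0% had their highest adult level in a tubule or duct cell type and 6.63% in stroma, against 38.8% and 8.23% of the genes in neither group. For the genes called without nuclei of another profile these shares were 32.5% and 19.7%, against 34.1% and 9.87% in neither group. The levels behind these shares were still those of all nuclei. Markers of the tubule moved with them. Of 19 markers 12 were tested, 11 were higher in adult stroma 1 and none at P0, with a median difference of 1.95. Lrp2, the megalin endocytic receptor, had 34.2 and 50.3 CPM at P0 and 265, 60.5 and 162 in the adult samples. Of the 10 loop of Henle markers 7 were tested and 5 were higher in the adult, as were 2 of 7 tested distal tubule markers. Of 13 stromal markers, 12 were higher at P0 and none in the adult. Among all genes tested, edgeR called 16.6% on the P0 side and 14.1% on the adult side. The remaining marker lists had calls on both sides or none. Podocyte markers gave 3 for P0 and 2 for the adult, of 8 tested, and ureteric bud markers 3 and 3 of 8. For nephron progenitors it was 3 and 1 of 6, for endothelium 1 and 1 of 11, and for intercalated cells 1 and 1 of 3. No principal cell or immune marker was called, with 2 tested in each list. In the nuclei without another profile 1 proximal tubule and 1 loop of Henle marker passed the filter and neither was called, while 1 of 4 distal tubule markers was higher in the adult and 2 of 8 stromal markers were higher at P0. The distal marker was Slc8a1, a sodium and calcium exchanger gene, which was not called with all nuclei. Among all genes tested in those nuclei, 13.9% were called on the P0 side and 9.27% on the adult side. Podocyte markers gave 2 for P0 and 1 for the adult there, of 7 tested, and endothelial markers 1 and 2 of 6. For the ureteric bud it was 2 and 0 of 4, for nephron progenitors 1 and 0 of 2, and for intercalated cells 1 and 0 of 1. Ppara, the fatty acid receptor gene that is highly active in the proximal tubule, changed from a difference of 1.95 to 0.39 (adjusted p = 0.479, edgeR) in the same step. The adult gains of such genes moved with the tubular profile, and the part of it in each was not tested.

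The transcription factors of the stromal lineage that were called had their higher level at P0. Of 26 tested, 14 were higher at P0 (8 with DESeq2) and none in the adult. Among all genes tested, edgeR called 16.6% on the P0 side and 14.1% on the adult side. The median difference of the 26 was -0.63, against 0.02 over all genes. Tcf21 had 101 and 81.1 CPM at P0 and 7.57, 11.3 and 16.4 in the adult samples, a difference of -2.83 (SE 0.32, adjusted p = 1.49e-06, edgeR). Tbx18, a T-box gene of the ureteral and perivascular mesenchyme, fell from 40.4 and 36.0 to 3.78, 3.78 and 4.10, a difference of -3.25. For both genes the P0 levels were several times those of any adult sample. Foxd1, the marker of stromal progenitors, changed less, from 46.9 and 40.2 to 11.3, 22.7 and 32.8, a difference of -0.83 (SE 0.30, adjusted p = 0.0399, edgeR). Lef1, a Wnt effector, showed -1.41. Among the nuclei without another profile 4 of 21 genes were called (Tcf21, Meis2, Lef1 and Nfix), all with the higher level at P0, where 13.9% of all genes were called in that direction, and the median was -0.24. Foxd1 and Tbx18 did not pass the filter there, with values of -0.15 and -3.14 in a fit without it, and Twist1 and Ebf1 lost their calls. Tcf21 kept a difference of -2.45 and Meis2 of -0.58, while Meis1, a homeobox gene of the stroma, went from -0.58 to -0.05 (adjusted p = 0.861, edgeR).

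Matrix genes made up the clearest group on the P0 side with all nuclei. Of 29 tested, 23 were higher at P0 and none in the adult, with a median of -1.28. The shares of all genes were 16.6% at P0 and 14.1% in the adult. Mfap4 had 84.4 and 78.4 CPM at P0 and 7.57, 7.56 and 4.10 in the adult samples, a difference of -3.77 (SE 0.36, adjusted p = 2.35e-07, edgeR). Fbn2, the fibrillin of developing tissues, fell from 134 and 128 to 26.5, 37.8 and 24.6, a difference of -2.20 (SE 0.23). Col14a1, a collagen associated with fibrils, fell from 155 and 145 to 30.3, 26.5 and 45.1, a difference of -2.05. Col1a1, the main fibrillar collagen chain, fell from 96.7 and 98.3 to 34.0, 49.2 and 47.2, a difference of -1.14. The P0 and adult samples did not overlap in any of these 4 genes with sample values, nor did they in 48.9% of all genes tested. Fbln5 and Loxl1, which act in elastic fibre assembly, showed -1.72 and -1.62 (-1.66 and -0.88 without nuclei of another profile), and Dcn, a small proteoglycan gene, -1.92. Without nuclei of another profile 10 of 17 matrix genes were called, all higher at P0, and the median was -0.88. The fetal growth list was much alike there, with 7 of 12 higher at P0 and a median of -0.88. Of all genes 13.9% were higher at P0 there and 9.27% in the adult.

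Signalling genes were divided. In the Hedgehog pathway, which patterns the mesenchyme around the ureter, 6 of 13 genes were higher at P0 and 1 was higher in the adult, Ihh, a ligand of tubular epithelium in the mature kidney. Gli2, a transcriptional effector, had 394 and 366 CPM at P0 and 79.4, 132 and 148 in the adult samples, a difference of -1.61 (SE 0.18). Gli3 showed -0.95 and Boc, a co-receptor gene, -1.14. Ptch1, the receptor and a target of the pathway, gave -0.22 (adjusted p = 0.274, edgeR), which did not pass the test. Of the retinoic acid genes 9 of 15 had their higher level at P0 and 1 in the adult, with a median of -0.96. Aldh1a2, which makes retinoic acid in the embryonic stroma, fell from 87.9 and 88.9 to 22.7, 41.6 and 20.5 CPM, a difference of -1.73 (SE 0.25). Stra6, a retinol uptake gene, and Crabp1, a retinoic acid carrier, gave -1.18 and -2.35. The gene higher in the adult was the receptor Rxra, at 0.69, which was 0.42 without nuclei of another profile (adjusted p = 0.0849, edgeR). In those nuclei 3 of 9 Hedgehog and 3 of 9 retinoic acid genes were called, all higher at P0, and the median of the retinoic acid genes moved to -0.21. The shares of all genes higher at P0 and in the adult were 16.6% and 14.1% with all nuclei, and 13.9% and 9.27% in those nuclei.

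Of 26 Wnt pathway genes, 7 had their higher level at P0 and 4 in the adult, which were Wnt9b, a ligand of the collecting duct lineage, Lrp5, Lgr4 and Znrf3. DESeq2 called 4 and 1. The antagonists Nkd2 and Sfrp1 were higher at P0 with -1.70 and -1.68. Axin2, a common target gene, gave -0.33 (adjusted p = 0.219, edgeR). A distal peak nearest to it is among the named peaks higher in the adult, but its reads may come from copies outside the assembled chromosomes. In the nuclei without another profile 3 of 19 Wnt genes had their higher level at P0 and 1 (Sfrp2) in the adult. Of 26 Tgf-beta and Bmp genes, 7 had their higher level at P0 and 2 in the adult, with 2 and 1 called by DESeq2, and 3 and 1 of 20 without those nuclei. Bmper, a Bmp modulator, and Bmpr1b, a receptor, showed -1.06 and -1.27, while the inhibitory Smad6 was higher in the adult with 0.44. These counts lay nearer to the shares over all genes than those of the matrix genes. The shares were 16.6% at P0 and 14.1% in the adult, and 13.9% and 9.27% without nuclei of another profile.

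Of 19 genes of fetal growth, 11 had their higher level at P0 and 1 in the adult, with a median of -0.88. Igf2, the fetal insulin-like growth factor, fell from 48.2 and 42.8 CPM to 11.3, 11.3 and 4.10, a difference of -2.52 (SE 0.39). Sox11, a factor of embryonic progenitors, fell from 48.9 and 50.7 to 0, 3.78 and 6.15, a difference of -3.63. The P0 levels of both genes lay above each adult sample, and in 48.9% of all genes tested the groups did not overlap. The RNA-binding Igf2bp1 and the growth regulators Mycn and Hmga2 gave -1.31, -1.35 and -0.88, and the receptor gene Igf1r was the 1 member higher in the adult, at 0.69. When nuclei of another profile were left out, 7 of 12 had the higher level at P0 and 1 in the adult, with the median again at -0.88. The shares of all genes there were 13.9% and 9.27%, against 16.6% and 14.1% with all nuclei. Igf2 and Sox11 did not pass the filter there, and 1 of the 7, Arid3a, was not called with all nuclei. Of 24 proliferation genes, 5 were higher at P0 and none in the adult, with a median of -0.27, and 16.6% of all genes were higher at P0. DESeq2 called 1 of the 24, and 1 of 13 was called without nuclei of another profile. The cyclin gene Ccnd2 gave -1.01, and Mki67 gave -0.82 (adjusted p = 0.0732, edgeR).

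Genes of pericytes, mesangial cells and smooth muscle had 6 of 24 higher at P0 and 5 in the adult with all nuclei, with a median of 0.09, where the shares of all genes were 16.6% and 14.1%. DESeq2 called 3 and 4. Contractile genes were among those higher in the adult. Lmod1, an actin filament nucleator of smooth muscle, rose from 31.3 and 22.9 CPM to 53.0, 147 and 51.3, a difference of 1.49. Tagln and Myh11, which encode an actin-binding protein and the smooth muscle myosin heavy chain, gave 1.03 and 0.78. The highest adult value of Lmod1 came from P56 sample 1. Among those higher at P0 were Itga8, the mesangial integrin, at -1.56, and the receptor genes Pdgfra at -1.04 and Pdgfrb at -0.68. Without nuclei of another profile 1 of 22 had its higher level at P0 and 9 in the adult, against 13.9% and 9.27% of all genes, and the median was 0.56. Acta2, smooth muscle actin, had 57.3 and 47.3 CPM at P0 and 53.0, 102 and 55.4 in the adult samples, with overlap between the groups and a difference of 0.35 (adjusted p = 0.27, edgeR). In the nuclei without another profile it had 57.9 and 48.5 at P0 and 92.9, 129 and 113 in the adult, a difference of 1.05 (adjusted p = 0.000862). Gata3, a factor of mesangial cells, likewise went from 0.48 (adjusted p = 0.0535) to 1.04, and Pdgfrb went from -0.68 to -0.13 (adjusted p = 0.672).

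Nuclear receptors and clock genes formed the clearest group on the adult side. Of 30 tested, 20 were higher in the adult and 2 at P0, with a median of 0.69. Without nuclei of another profile 13 of 27 were higher in the adult and 2 at P0. The shares of all genes were 14.1% in the adult and 16.6% at P0 with all nuclei, and 9.27% and 13.9% without those nuclei. Genes that glucocorticoids are known to induce were among them. Fkbp5, a chaperone of the receptor, rose from 133 and 137 CPM to 250, 280 and 379, a difference of 1.22 (SE 0.15, adjusted p = 3.96e-06, edgeR). Tsc22d3, also called Gilz, gave 1.01, Per1, a clock repressor, 0.88, and Klf9 1.08. Hlf, a factor of the circadian output, rose from 75.2 and 73.9 to 261, 185 and 302, a difference of 1.79 (SE 0.15), and Dbp of the same family gave 1.13. None of the adult values of Fkbp5 or Hlf came down to a P0 value, and in 48.9% of all genes tested the groups did not overlap. The receptor genes Esr1 and Rora were the 2 higher at P0, with -1.09 and -0.53. Nr3c1, the glucocorticoid receptor gene, gave 0.57, and 0.35 without nuclei of another profile (adjusted p = 0.257, edgeR).

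Of 20 AP-1 and immediate early genes tested, 5 were higher in the adult (4 with DESeq2) and 2 at P0 (0 with DESeq2). Over all genes 14.1% were higher in the adult and 16.6% at P0, and 9.27% and 13.9% without nuclei of another profile. Junb, an AP-1 subunit, had 103 and 93.8 CPM at P0 and 208, 170 and 213 in the adult samples, a difference of 1.02. Without nuclei of another profile 6 of 18 were higher in the adult and none at P0. Jund gave 0.84 and Zfp36, which destabilises inflammatory mRNAs, 1.19, whereas Fos gave -0.08 (adjusted p = 0.754, edgeR). Of 15 hypoxia genes 7 were higher in the adult and 1 at P0 (4 and 0 with DESeq2), and of 11 without nuclei of another profile 5 and none. Epas1, the HIF factor that drives erythropoietin in the renal interstitium, rose from 104 and 99.8 to 219, 314 and 185, a difference of 1.17 (SE 0.16). Egln1, its oxygen-sensing hydroxylase, and Bnip3, a target, gave 1.06 and 1.31, while Epo itself gave 0.37 (adjusted p = 0.0503, edgeR). Of 15 complement, chemokine and antigen genes 4 had their higher level at P0 and 2 in the adult, and 1 and 1 of 7 without nuclei of another profile, which is near the shares over all genes of 16.6% and 14.1%, and 13.9% and 9.27%. The 2 were the class I antigen genes H2-K1 and H2-D1, at 2.05 and 1.86, which belong to a family of near copies whose reads may be shared. The alarmin gene Il33 was higher at P0, at -1.33.

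**Figure D3:**
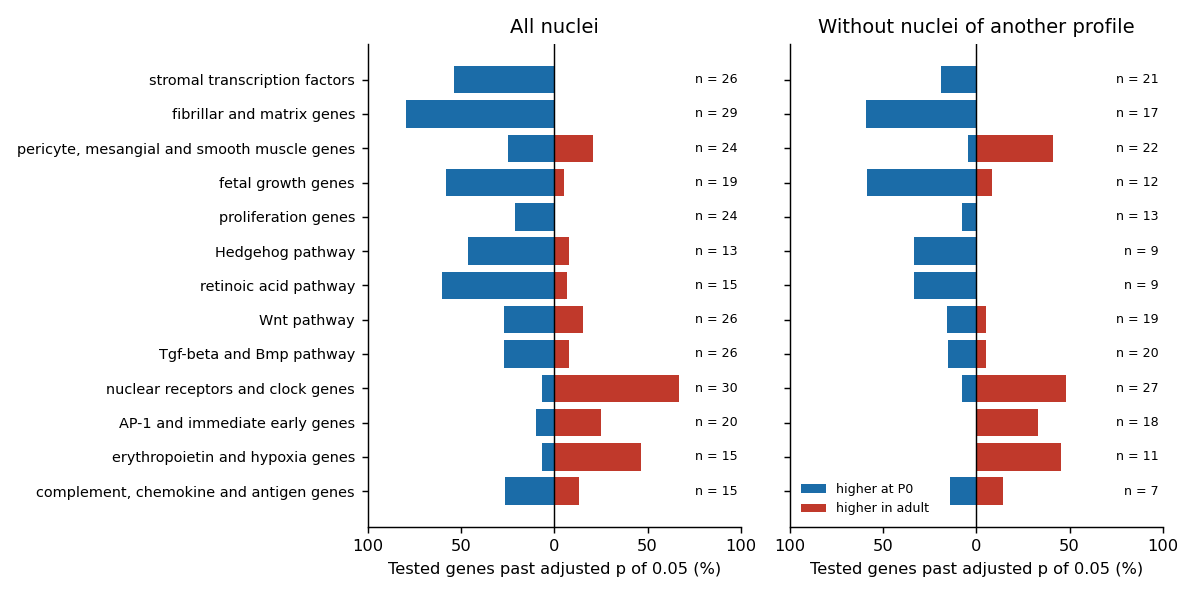
Share (%) of the tested genes of each list that passed an adjusted p of 0.05, to the left for higher at P0 and to the right for higher in the adult, with n the genes tested, for all nuclei and without nuclei of another profile. Matrix genes had 23 of 29 on the P0 side and nuclear receptor and clock genes 20 of 30 on the adult side. Of all genes tested, 16.6% were on the P0 side and 14.1% on the adult side with all nuclei.

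To see where stroma 1 differed from other cells of the same samples, its stage difference was set against that of stroma 2 (3539 nuclei) and of endothelium (2368 nuclei), with sample as a block. A value below 0 means that the adult minus P0 difference was lower in stroma 1. Against stroma 2, 1031 of 18860 genes had a lower difference in stroma 1 (5.47%) and 795 a higher one (4.22%). Without nuclei of another profile 829 of 17761 were lower (4.67%) and 633 higher (3.56%). Against endothelium, 1188 of 18806 genes were lower (6.32%) and 1025 higher (5.45%), and 891 and 739 of 18091 without nuclei of another profile. Leaving out either P0 sample cut the stroma 2 counts to 436 and 277 (P0 sample 1) or 451 and 284 (P0 sample 2), and without P56 samples 1 and 2 in turn the higher genes numbered 524 and 514. Against endothelium the counts were 329 and 336 without P0 sample 1, 444 and 471 without P0 sample 2, and 459 and 496 without P56 sample 2, and the lower count was 658 without P21.

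Of 32 matrix genes tested against stroma 2, 17 had a lower stage difference in stroma 1 and none a higher one, and 14 of the 17 were also called without nuclei of another profile. DESeq2 called 10 lower and none higher. Over all genes edgeR put 5.47% lower and 4.22% higher. The matrix genes' median was -1.28 in stroma 1 and -0.29 in stroma 2. Fbln5 moved in opposite directions. In stroma 1 it had 158 and 134 CPM at P0 and 45.4, 45.4 and 43.1 in the adult samples. Its difference was -1.72 (SE 0.21) in stroma 1 and 0.69 (SE 0.14) in stroma 2, so that the 2 clusters differed by -2.36 (SE 0.20, adjusted p = 3.13e-12, edgeR). Loxl1 had 204 and 200 CPM at P0 and 53.0, 64.3 and 73.8 in the adult samples, and the clusters differed by -1.89. Col1a1, Col14a1 and Fbn2 differed by -0.97, -1.50 and -1.32. Mfap4 fell in both clusters (stroma 2 -3.12), and its difference between them, -0.51, did not pass the test (adjusted p = 0.713, edgeR).

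Of 29 mural genes tested against stroma 2, 8 had a higher stage difference in stroma 1, which were Acta2, Myh11, Mcam, Gata3, Myocd, Mef2c, Lmod1 and Ednrb, and 2 a lower one, Pdgfra and Pdgfrb. All 10 were also called without nuclei of another profile, and DESeq2 called 4 higher and 2 lower. Over all genes edgeR put 4.22% higher and 5.47% lower. Myocd, the coactivator of smooth muscle genes, differed by 1.93 and Gata3 by 1.46, with stroma 2 itself at -1.01 and -0.89. Acta2 differed by 1.11, its difference being -0.67 in stroma 2. Pdgfra and Pdgfrb rose in stroma 2, by 0.36 and 0.52, and the clusters differed by -1.39 and -1.18. Against endothelium, 11 of 29 mural genes had a higher difference in stroma 1 and none a lower one, where 5.45% and 6.32% of all genes did.

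Stromal transcription factors gave 7 genes with a lower difference in stroma 1 and none higher, of 27, and DESeq2 called 4 and 0. Over all genes edgeR put 5.47% lower and 4.22% higher. Tcf21 fell in both clusters, by 2.83 on the log2 scale in stroma 1 and by 0.74 in stroma 2, and they differed by -2.04 (adjusted p = 2.53e-05, edgeR). Meis2 and Nfix differed by -0.86 and -0.67. These 3 and Nfia were the members also called without nuclei of another profile. The fetal growth list gave no call among 23 genes with edgeR or DESeq2, although at an unadjusted p under 0.05 edgeR put 6 lower and 2 higher and DESeq2 0 and 2. Its median was -0.88 in stroma 1 and -0.46 in stroma 2, and Igf2 and Sox11 differed by -0.20 and -1.20 without passing the test. Of the nuclear receptor and clock genes 3 were lower and 4 higher, of 30, while 2 and 2 of them were also called without nuclei of another profile and DESeq2 called 2 and 1. Their medians were 0.69 in stroma 1 and 0.70 in stroma 2, and Zbtb16 gave 1.90 and 2.31. Of the retinoic acid genes 5 of 16 and of the Hedgehog genes 3 of 14 were lower, where 5.47% of all genes were, and 1 Hedgehog gene, Ihh, was higher, which was called neither without nuclei of another profile nor with DESeq2. Of the lower genes, 1 and 2 were also called without nuclei of another profile, and DESeq2 called 0 and 2. Boc differed by -1.45. Of 28 Wnt genes 4 were lower (1 also without nuclei of another profile, 1 with DESeq2) and 2 higher (2 and 1), of 29 Tgf-beta and Bmp genes 4 were lower (3 and 1) and 1 higher (0 and 0), and of 24 complement, chemokine and antigen genes 4 were lower (2 and 1) and none higher. In the Wnt list Sfrp2, a secreted antagonist, differed by 2.40.

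Over all genes tested, those with the smallest adjusted p on the side higher in stroma 1 included Limch1 and Dgkb, and those on the other side included the matrix list members Fbln5 and Loxl1 as well as Matn2. Limch1, a regulator of actomyosin, gave 0.76 in stroma 1 and -0.65 in stroma 2, a difference of 1.45 (SE 0.14). Matn2, a matrix adaptor gene, gave -1.30 and 0.56, and C1qtnf2 -2.80 and 0.23. Against endothelium, Lama5 differed by 1.88 and Mctp2 by -2.42.

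**Figure D4:**
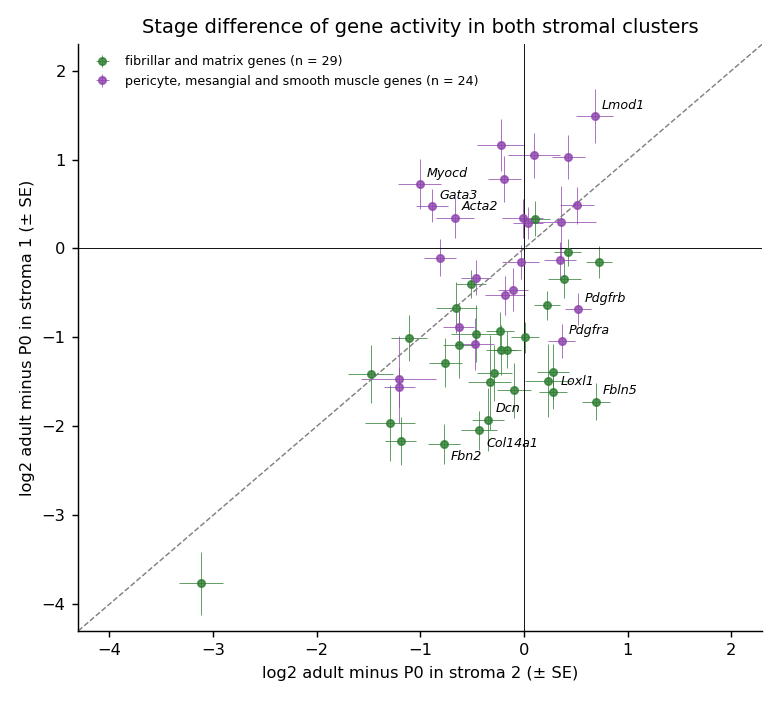
Stage differences of gene activity (log2, adult minus P0, with SE bars) of matrix and mural genes, stroma 2 on the x axis and stroma 1 on the y axis, with a dashed line of equal differences. Fbln5 lies at 0.69 and -1.72 and Myocd at -1.01 and 0.72, on opposite sides of the line.

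Single peaks were compared in the same way. Of 15376 peaks tested, 3197 were more open at P0 (20.8%) and 2620 in the adult (17.0%). Without nuclei of another profile, 4028 peaks could be tested, of which 189 were more open at P0 (4.69%) and 240 in the adult (5.96%). Of the 252 P0 peaks tested in both, 166 were called again, and of the 939 adult peaks 225 were. The filter takes its limit from the median library total, so between 14336 and 48217 peaks were tested when a sample was left out. The counts were 1678 and 509 without P0 sample 1, 2053 and 690 without P0 sample 2, 9585 and 5818 without P21, 11538 and 7856 without P56 sample 1, and 7879 and 3833 without P56 sample 2. Against stroma 2, 4367 of 66107 peaks had a lower difference in stroma 1 (6.61%) and 693 a higher one (1.05%), around a median of -0.25 over all peaks tested. These counts were 2294 and 125 without P0 sample 1, 2425 and 150 without P0 sample 2, 2133 and 208 without P56 sample 1, and 2623 and 362 without P56 sample 2, and the higher count was 445 without P21.

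The cell type in which the called peaks were most open differed by direction. At P0, 67.0% of the peaks higher at P0 were most open in stroma 1 or stroma 2 among the 13 cell types, against 8.77% of the peaks in neither group. Most of these, 1518 peaks, were most open in stroma 1 itself, and 623 in stroma 2. Of the peaks higher in the adult, 47.9% were most open in a tubule or duct type and 13.8% in stroma, taking adult levels. For peaks in neither group these shares were 30.5% and 12.3%. Since these levels include the stroma 1 calls themselves, they describe the peaks and are no test. Peaks higher at P0 lay outside exons and promoters more often than the other tested peaks. They were distal or intronic in 56.7% of cases (95% exact interval 54.9 to 58.4), compared with 38.9% (37.1 to 40.8) of those higher in the adult and 13.7% of those in neither group. A transcription start was covered by 31.2%, 49.8% and 81.3% of these groups. Of all peaks of the matrix, most of which were not tested, 78.3% were distal or intronic and 7.43% covered a start. Intervals treat peaks as separate draws and cover counting error only.

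The letters of 26 motifs were searched on both strands in the central 300 bases of the peaks that cover no start, which were 2198 higher at P0, 1316 higher in the adult and 1786 in neither group. These are calls from all nuclei, and 48.3% of the adult nuclei carried another profile. Of 939 adult peaks also tested without such nuclei, 225 were called again, and no motif shares are given for those. The E-box CATCTG was in 27.5% of the P0 peaks (25.6 to 29.4) and in 16.7% of the adult peaks (14.7 to 18.8), with 18.3% in neither group and 23.5% of all such peaks of the matrix. This is a word bound by helix-loop-helix factors such as Tcf21. The E-box CAGCTG gave 31.0%, 23.3%, 23.1% and 19.8% in the same order. TGACAG, a MEIS word, gave 26.8% at P0, 19.1% in the adult and 23.0% of all such peaks, and TGATTNAT, which PBX and HOX factors bind together, 8.33%, 3.50%, 4.76% and 5.84%. The RUNX word TGTGGTT gave 9.01%, 4.33%, 5.32% and 7.20%. On the adult side, the NFI word TTGGCA was in 23.7% (21.4 to 26.1) against 17.6% at P0 (16.0 to 19.2), 16.7% and 18.3%. The glucocorticoid receptor palindrome, which related steroid receptors also bind, was in 32 adult peaks, or 2.43% (1.67 to 3.42). It was in 7 P0 peaks, or 0.318% (0.128 to 0.655), in 0.616% of those in neither group and in 0.717% of all such peaks. Among the other words searched, TCF and LEF CTTTGATC was in 1.55% of P0 and 0.456% of adult peaks, the EBF palindrome in 1.05% and 2.74%, and ZEB CAGGTAG in 1.36% and 3.19%. The AP-1 word TGANTCA was in 9.46% and 11.2%, the TEAD word in 23.4% and 22.1%, the Gata word in 14.5% and 11.4%, the forkhead word TGTTTAC in 6.14% and 4.41%, and the HNF4 word CAAAGTCCA in 0.455% and 0.608%. GGGCGG, a KLF and SP word, was in 12.1%, 17.5%, 30.9% and 5.99%. The base composition of the groups differed, with a median GC content of 47.6% at P0, 51.6% in the adult and 52.5% in neither group, and its part in these shares was not tested. Within whole peaks, the glucocorticoid receptor word was in 2.23% of P0 and 5.70% of adult peaks.

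Of the 10 named peaks higher at P0, 7 were distal, all 10 were most open in stroma at P0, and all 10 were called again without nuclei of another profile. None held the glucocorticoid receptor word, whereas 3 of the 10 named adult peaks did, in introns of Zbtb16, Tns1 and Pptc7. The Tns1 peak, at chr1:74007552-74008273 in a focal adhesion gene, was open in 2.61% and 1.22% of P0 nuclei and in 12.2%, 22.4% and 23.8% of adult nuclei, a log2 difference of 3.80. An intronic peak 562 bp from an annotated start of Hlf, at chr11:90382009-90382985, was open in 2.46% and 3.26% at P0 and in 13.3%, 15.9% and 31.7% in the adult, a difference of 3.38. A peak in an intron of Cry2, a clock repressor gene, at chr2:92423702-92424276, was open in 0.87% and 1.83% at P0 and in 15.6%, 14.0% and 22.8% in the adult, a difference of 4.27. The distal peak at chr11:109011745-109012277, 68390 bp from the start of Axin2, was open in 10.3% and 15.7% at P0 and in 23.3%, 29.0% and 52.5% in the adult, a difference of 2.02, and 1.66 without nuclei of another profile. The adult samples lay above both P0 samples in each of these 4 peaks with all nuclei, and the named peaks were chosen for such a difference in level. Without nuclei of another profile, the peak nearest to Axin2 was open in 14.4% of nuclei of P0 sample 2 and in 13.5% of P21 nuclei. Adult nuclei had fewer open peaks, and the part of depth was not tested. Of the 10 named adult peaks, 5 were most open in stroma in the adult and 7 were called again without nuclei of another profile. The remaining 3, near Pim3, Pptc7 and Prodh, were not tested there and were most open in tubule types. The adult peak in Lars2 has 7 other copies in the genome, so its reads may come from elsewhere. This search for copies covered assembled chromosomes only. For the other named peaks, among them the one nearest to Axin2, reads from copies outside those chromosomes cannot be told apart.

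**Figure D5:**
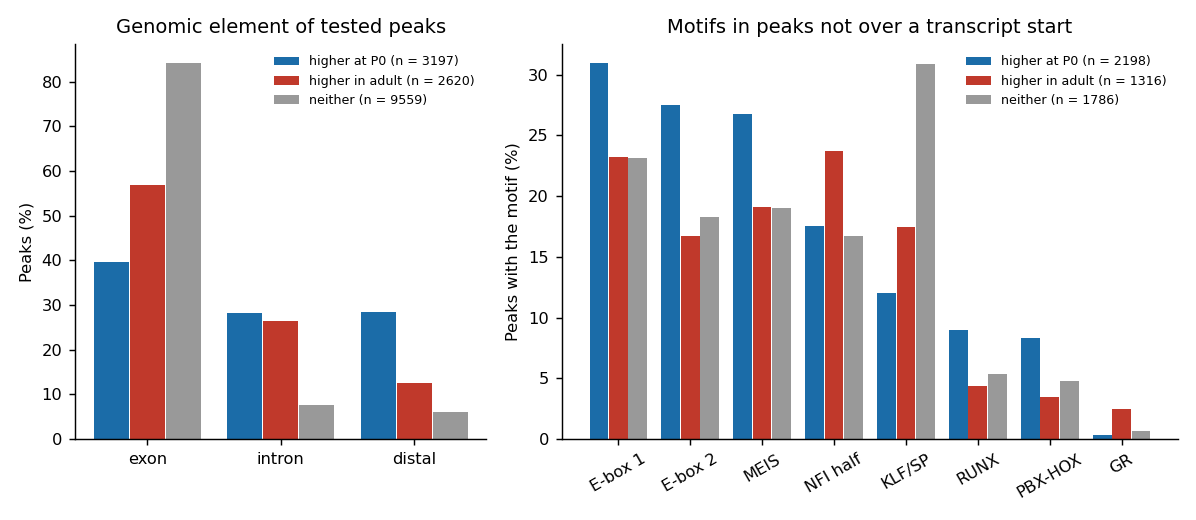
Left, share (%) of tested peaks in exons, introns and distal regions by direction (promoter peaks outside exons are not drawn). Right, share (%) of peaks that cover no start and hold each motif in their central window, with E-box 1 for CAGCTG, E-box 2 for CATCTG and GR for the glucocorticoid receptor palindrome, which was in 0.318% of P0 and 2.43% of adult peaks.

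The P21 sample was placed between the other stages by genes called without it. For genes called between P0 and P56 without it, a position of 0 is the P0 mean and 1 the P56 mean, on a scale of log2 of the level plus 1. The median position of P21 was 0.92 over 1806 genes higher at P0 and 0.98 over 1663 genes higher at P56 that also passed the filter with all samples, and 80.9% and 81.0% of these genes lay nearer to P56. The medians were 1.00 and 0.75 without nuclei of another profile. For the 2490 of 9585 and 2214 of 5818 peaks that passed that filter, in which P21 takes part, they were 1.03 and 1.04. Zbtb16, at 390 CPM at P21 against 563 and 511 at P56, and Lama5, at 204 against 197 and 189, are examples. These values come from 1 sample of 90 nuclei, 53 of which carried another profile.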

How the data were processed

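The authors processed the snATAC-seq reads with Cell Ranger ATAC 1.1.0 (mm10), clustered and named the nuclei with SnapATAC and Harmony, called peaks per cell type with MACS2 and merged them. The matrix was deposited by the authors as binarized counts (0 or 1 per nucleus and peak), which hold no fragment numbers and no scaling. The deposited peak list and cell annotation gave positions (mm10, GRCm38) and the sample and cluster of each nucleus, with no measured unit (marked other). The embedding coordinates (score) and the scRNA-seq files were not used here.

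Open calls of stroma 1, stroma 2 and endothelial nuclei were summed per sample, over each of 300755 peaks and over the peaks of 22458 genes (GENCODE M21, gene body and 2 kb upstream). The sums were tested with edgeR 4.0.16 in R 4.3.3 (filterByExpr with a minimum count of 10 and total of 15, TMM, quasi-likelihood test, Benjamini-Hochberg at 0.05), with sample as a block between clusters. SE is the absolute log2 difference over the square root of F. DESeq2 1.42.0 was an alternative. Per-sample depth ranged from 294254 to 3823908 stroma 1 calls, and intervals cover counting error only. Tested on simulated data, 96.5% of 200 genes changed 4-fold were recovered in the stroma 1 gene test with 11 false calls, and 85.5% of peaks with 6. Against stroma 2, 82.5% of genes and 31.0% of peaks were recovered with 6 and 0, and 77.0% of genes against endothelium with 6. The simulated counts used the fitted common dispersions, so simulated samples differed little beyond counting error. These rates do not cover the changes in counts seen when a sample was left out.

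Named genes are list members, the 15 protein-coding genes per direction with the smallest adjusted p, at least 50 calls in each sample of the higher group and no overlap, the 8 per direction for each test between clusters, and the 10 peaks per direction open in at least 5% of nuclei of the higher group. The members and lists were chosen with earlier results of these data known. The values of some list genes are not reported here, although the list counts include them. Doublets were not called here. Copies of peaks were searched with BLAST 2.17.0 and counted on assembled chromosomes only. The alternatives were DESeq2, no filter, thinning each nucleus to 1000 open peaks, equal numbers of nuclei, a 1.5-fold threshold, gene starts in place of bodies, each sample left out, a replicate block and, added after seeing the data, nuclei without another profile and P56 sample 1 as the only adult sample.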

Additional observations from a re-analysis of the deposited data

Results flagged for a closer look

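The stage difference was tested for being unequal between clusters, and each result here passed that test (edgeR, sample as a block). Values are log2, the difference in stroma 1 minus that in the other cluster. Against stroma 2, 1031 genes had a lower and 795 a higher stage difference in stroma 1, and against endothelium 1188 and 1025 had.

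Among the genes chosen against stroma 2, those lower in stroma 1 were the elastic fibre genes Fbln5 (-2.36) and Loxl1 (-1.89), the matrix adaptor Matn2 (-1.82), C1qtnf2 (-2.96), Lnx1 (-1.76), Mbp (-1.72), 1700030F04Rik (-3.40) and Gm36535 (-3.44). Those higher were Limch1 (1.45), Dgkb (2.29), Rgs7bp (2.37), Pcp4l1 (2.29), Cap2 (2.18), Trabd2b (1.22), Schip1 (1.40) and Iqschfp (1.37). Schip1 and Iqschfp overlap and share peaks, so they are not separate results. All 16 were also called without nuclei of another profile.

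Against endothelium the lower genes were Mctp2 (-2.42), Xdh (-2.56), Nostrin (-2.10), Tmtc1 (-1.98), Sdk2 (-1.85), BC052040 (-1.59), Dnm3 (-1.40) and 6030407O03Rik (-2.03). The higher genes were Lama5 (1.88), P3h2 (1.90), Stac (3.07), Sntb1 (1.78), Pvt1 (1.71), Shank2 (1.64), Arhgef17 (1.40) and Prkag2 (1.32). Of these 16, Shank2 was not called without nuclei of another profile, where its value was 0.56, and the other 15 were.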

How the results depend on the processing

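The number of calls varied between settings. For peaks, the counts at P0 and in the adult were 28807 and 5755 with no filter, 0 and 1 by edgeR with nuclei thinned to 1000 open peaks, where 423 in place of 15376 peaks were tested, 1948 and 1212 with equal nuclei per sample, 189 and 240 without nuclei of another profile, and 1788 and 1115 with P56 sample 1 as the only adult sample, and the adult count was 1393 with a 1.5-fold threshold. For genes they were 1355 and 1057 with DESeq2, 379 and 183 thinned, 1548 and 994 with equal nuclei, 1076 and 547 with a 1.5-fold threshold, 1234 and 1156 at gene starts, 1131 and 753 without nuclei of another profile, and 949 and 781 with P56 sample 1 alone. With nuclei thinned, 504 of 504 genes higher at P0 that could be tested kept their direction, as did 668 of 691 higher in the adult. For peaks, 4 of 4 and 142 of 178 did. With equal nuclei, 2208 of 2208 and 2024 of 2024 genes did, and 2226 of 2226 and 2190 of 2190 peaks. Both settings reuse the nuclei that gave the calls, and the equal draw took 90 nuclei per sample, which is all of P21. Kept directions were thus near fixed in advance and are no separate support. Against stroma 2, lower and higher peaks numbered 860 and 117 with DESeq2, 77 and 3 thinned, and 1185 and 124 with equal nuclei, with 2892 lower without nuclei of another profile and 241 higher with no filter. The genes numbered 369 and 219, 199 and 109, and 381 and 177 under the first 3 of these, and 338 and 194 at gene starts. Against endothelium they were 142 and 196, 146 and 131, and 410 and 422. The cause of these differences was not tested.

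Leaving out each sample in turn gave 1678 to 11538 peaks higher at P0 and 509 to 7856 in the adult, and 931 to 3139 and 449 to 2827 genes. Against stroma 2 it gave 2133 to 3125 lower and 125 to 445 higher peaks, and 436 to 864 and 277 to 712 genes. Against endothelium it gave 329 to 1057 and 336 to 951 genes. The replicate block gave 3113 and 2470 peaks and 1972 and 1458 genes, and the samples share only a number (r = 0.129 for the 1 pair that could be checked).

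With promoters assigned first, 52.5% and 32.9% of P0 and adult peaks were distal or intronic. In whole peaks the glucocorticoid receptor word was in 2.23% and 5.70%, CATCTG in 63.3% and 48.1%, and the NFI word in 46.5% and 51.9%. Directions turned for Nr2f2 (0.053; -0.045 with P56 sample 1 alone, and -0.012 to 0.13 with single samples left out, the lowest without P0 replicate 2), Sfrp2 (0.24; -0.083 with equal nuclei, and -0.12 to 0.69 with single samples left out, the lowest without P56 replicate 1) and Axin2 (-0.33; 0.048 with P56 sample 1 alone). Over all settings, 1293 values of the single genes and peaks reported kept direction and side of the threshold, 112 lost the call, 13 gained it and 5 turned. Values were counted only where the gene or peak passed the filter of that setting. Those kept include genes called in neither setting. The adult sums, of 90 to 107 nuclei per sample, limit what low genes and single peaks can show.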
